A study of Mus musculus with 6 samples.

Results

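Complex I, the NADH:ubiquinone oxidoreductase of the mitochondrial inner membrane, was followed through its nuclear-encoded genes. Members were the genes whose symbol consisted of NDUFA, NDUFB, NDUFC, NDUFS, NDUFV, NDUFAB or NDUFAF followed by a number. The rule took 46 of the 39234 genes in the deposited table, of which 38 encode subunits and 8 encode NDUFAF assembly factors. The 38 include NDUFA4 because of its symbol. All 46 members passed the filter on low counts and were among the 18188 genes tested. They lay on 22 chromosomes, 6 of them on chromosome 19.

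RNA had been sequenced from the immortalized human proximal tubule line HK-2, in 3 control libraries and 3 libraries with overexpression of USAG-1, a secreted BMP and Wnt antagonist encoded by SOSTDC1. Both groups carry the genotype label WT and no other agent, and the labels call the control only Cont. The study describes USAG-1 overexpression in these cells as transient, from a plasmid, so the cells of a culture need not all carry it, and states that the identity of the line was not tested by STR typing. Mouse is given as the organism in the labels, although line and gene identifiers are human.

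Complex I takes electrons from NADH in its N module, passes them along iron-sulfur clusters into its Q module, where ubiquinone is reduced, and pumps protons through the proximal and distal modules of its membrane arm. The core subunits do this chemistry, and the accessory subunits surround and stabilise them. The membrane arm is built around ND subunits that are encoded in mitochondrial DNA, while the genes described here are transcribed in the nucleus and their proteins are imported. Assembly factors help to build the enzyme and are not part of the finished complex, and proximal tubule cells depend on oxidative phosphorylation for their transport work.

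The control libraries held 79, 80 and 60 counts of SOSTDC1 and the overexpressing ones 5072, 3907 and 4438, so the overexpressed gene separated the groups as labelled. Library totals were 41236194 to 48699471 counts in control cells and 42782931 to 45448720 counts in USAG-1-overexpressing cells, and members took 0.154% to 0.186% of them. Kidney epithelial markers PAX8, KRT8, KRT18 and CDH2 were detected, and PAX8 and CDH2 were called higher with USAG-1 overexpression (log2 fold change 0.26 and 0.28). The 9 proximal tubule markers summed to 90.2 to 120 CPM in control and 141 to 169 CPM in overexpressing libraries, most of it GGT1, which was called higher (0.55, adjusted p = 0.0208), while LRP2, the megalin gene, had no count in any library. Transcripts of T and NK cells were present, with 14 of 15 tested markers called lower with USAG-1 overexpression and a summed level of 116 to 137 CPM in control libraries against 31.0 to 38.3 CPM. Mitochondrially encoded genes held 4.80% to 5.59% of the counts in control libraries and 1.5% to 1.55% in the others. Control replicate 3 stood apart from the other control libraries, with a chi-square per degree of freedom of 42.3 and 42.7 against them, compared with 6.52 between controls 1 and 2 and 7.66 to 8.35 among the overexpressing libraries. Globin transcripts were abundant in control replicate 2 and overexpression replicate 1, with 5263 and 3494 counts, against 320 to 804 in the other libraries. Values without control replicate 3 and without the globin-rich libraries are given with the results below, and the same 3 members were called when the genes of mitochondrial DNA were removed before scaling. The part of the T and NK cell transcripts in the results was not tested, and in bulk RNA fewer cells of a type and less RNA per cell cannot be told apart.

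The comparison asked how overexpression of USAG-1 went with the RNA levels of complex I genes. By edgeR's quasi-likelihood test, adjusted over all genes by the Benjamini-Hochberg method, 3 of the 46 members were called lower and 0 were called higher at a threshold of 0.05. The called genes were NDUFA2, NDUFB6 and NDUFA13, all of them accessory subunits. Of all genes tested, 15.9% were called, 6.91% lower and 8.95% higher. Among the 9299 genes within the members' range of control levels, 20.7% were called and 7.93% were lower. The members' share of 6.52% therefore lay near the background for lower genes and under that for either direction.

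Smaller differences pointed mostly one way. The point estimate was below 0 in 40 of the 46 members, compared with 52.5% of all genes tested. At an unadjusted p under 0.05 there were 12 members, all lower, while 14.7% of all genes tested were lower at that level. Every overexpressing library lay below every control library in 18 members and above in 0, against 18.1% and 19.4% of all genes tested. The median log2 fold change was -0.18 over the members and -0.02 over all genes tested. For 33 of the 46 members the 95% interval lay within 0.5 of 0 on the log2 scale, and for the other members it reached further.

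**Figure D1:**
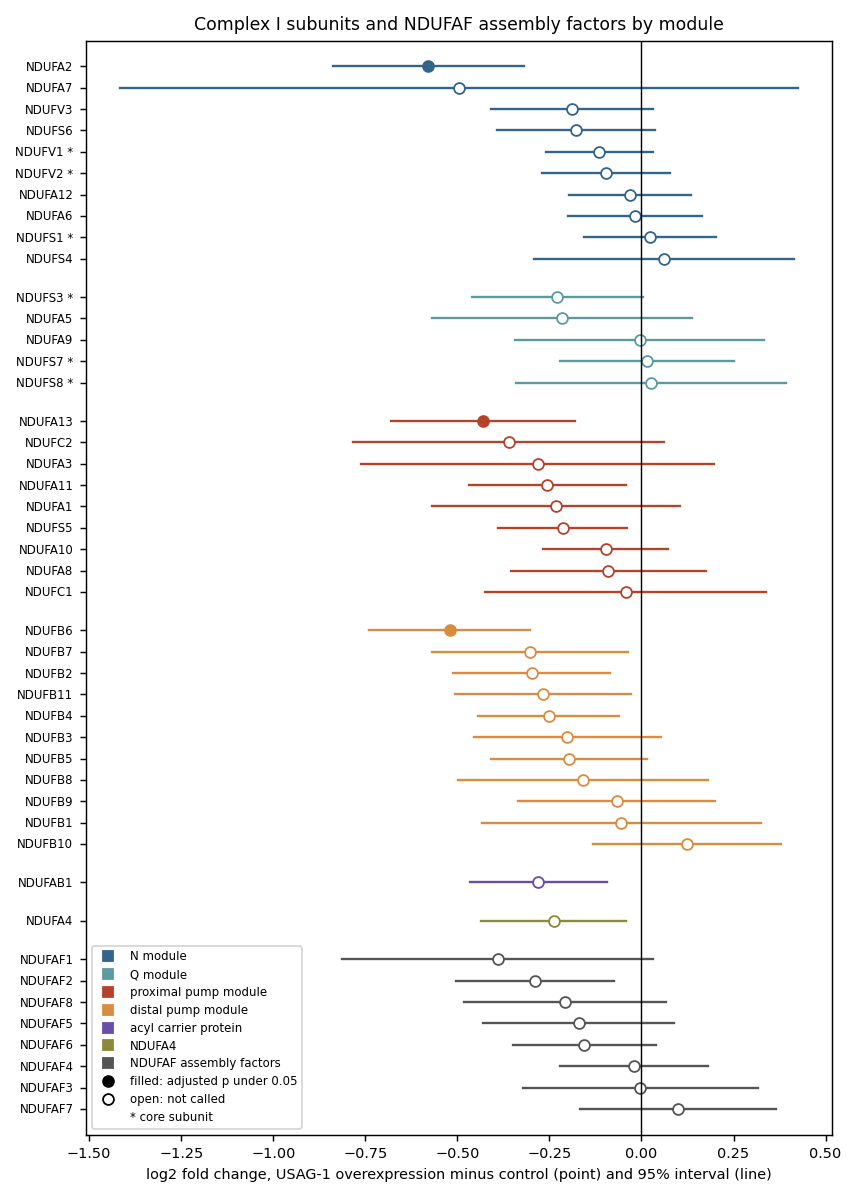
Log2 fold change of 45 of the 46 members, USAG-1 overexpression minus control, as a point with its 95% interval, grouped by module, with filled points for genes called at an adjusted p under 0.05 and a star for core subunits. NDUFA2, NDUFA13 and NDUFB6 are the filled points, the Q module lies around 0, and NDUFA7 has the widest interval.

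NDUFA2, an accessory subunit of the N module (ENSG00000131495, chromosome 5, 140638740 to 140647771, hg38), had the lowest fold change of the members. Its level was 17.5, 17.8 and 18.8 CPM in the control libraries and 10.3, 12.6 and 13.2 CPM in the overexpressing ones. All overexpressing libraries were below all controls, with replicate 1 the lowest. The level fell by 33.1%, with a log2 fold change of -0.58 (standard error 0.11, 95% interval -0.84 to -0.32, adjusted p = 0.0121 in edgeR's quasi-likelihood test). On the other strand the gene overlaps TMCO6, with a log2 fold change of -0.49 (adjusted p = 0.0729), and IK, which was called higher by 0.27 (adjusted p = 0.0241).

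NDUFB6, an accessory subunit of the distal pump module (ENSG00000165264, chromosome 9, 32553001 to 32573184), had the smallest p of the members. NDUFB6 gave 13.8, 14.0 and 14.9 CPM in control cells and 9.74, 9.85 and 10.2 CPM in USAG-1-overexpressing cells. The groups were far apart relative to their spread, with an SD of 0.591 and 0.266 CPM (n = 3 each). Its log2 fold change was -0.52 (standard error 0.09, 95% interval -0.74 to -0.30, adjusted p = 0.00925), a level that fell by 30.3%. Most of the gene's span is shared with SMIM27 on the other strand, which itself fell by 1.36 on the log2 scale (adjusted p = 0.00399). On the same strand it overlaps the pseudogene DFFBP1, with 34, 33 and 41 counts in control and 71, 72 and 63 in overexpressing libraries, which was called higher by 0.93 (adjusted p = 0.0429). Whether reads were assigned by strand is not given in the sources used here, so the part of reads shared with these genes was not tested. NDUFB6 held 3226 counts in all, SMIM27 held 746 and DFFBP1 held 314. Without overexpression replicate 2 the adjusted p of NDUFB6 was 0.0504.

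NDUFA13, also known as GRIM-19 and placed in the proximal pump module (ENSG00000186010, chromosome 19, 19515736 to 19528198), was the third called member. Control libraries held 32.1, 32.5 and 40.7 CPM, and overexpressing libraries held 27.9, 23.9 and 26.4 CPM. The groups did not overlap, and control replicate 3 lay well above the other controls. The log2 fold change was -0.43 (standard error 0.11, 95% interval -0.68 to -0.18, adjusted p = 0.0326). This call was lost when the counts of NDUFA13 were summed with those of another gene of the same strand, as described below. It was also lost without control replicate 2 or any single overexpressing library (adjusted p = 0.0548 to 0.143), and with no filter on low counts (adjusted p = 0.0632). With control replicate 2 and overexpression replicate 1, the globin-rich libraries, left out together, none of NDUFA2, NDUFB6 and NDUFA13 kept its call (adjusted p = 0.128 to 0.134), with log2 fold changes of -0.49, -0.52 and -0.53. In that smaller comparison 1.83% of all genes were called by adjusted p. There 8 members had an unadjusted p under 0.05, a level for which the share of all genes is not given here.

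**Figure D2:**
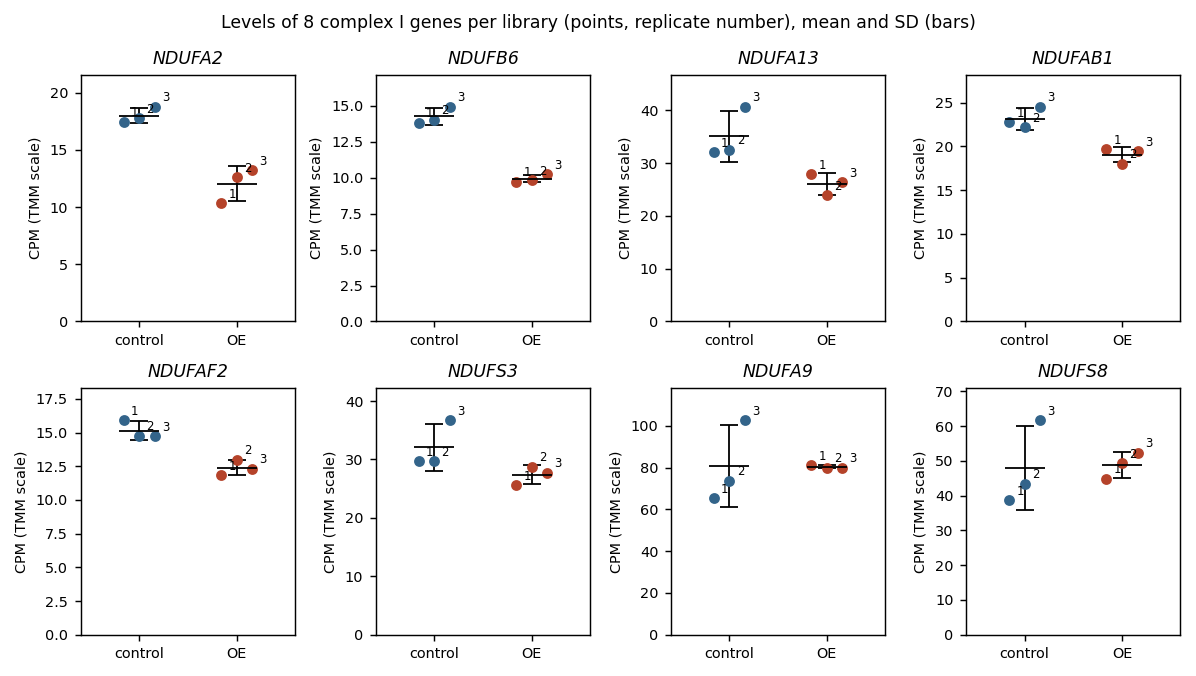
Level of 8 members in each library (y axis, CPM on the TMM scale, starting at 0), with points numbered by replicate and bars for the mean and SD of 3 libraries. NDUFA2 and NDUFB6 show separate groups with small spread, whereas in NDUFA9 and NDUFS8 control replicate 3 lies above all other libraries and the remaining controls lie below the overexpressing libraries.

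The N module, which oxidises NADH, had 1 of its 10 genes called, NDUFA2, and a median log2 fold change of -0.11. NDUFV1, the subunit that binds NADH and the flavin, had 76.7, 77.5 and 83.5 CPM in control cells and 69.8, 74.4 and 75.4 CPM with USAG-1 overexpression. Its groups were apart by a narrow margin, and its log2 fold change of -0.11 (adjusted p = 0.269) was not called. NDUFV2, which holds an iron-sulfur cluster beside NDUFV1, had -0.10 (adjusted p = 0.442), and NDUFS1, the large iron-sulfur subunit of the module, had 0.02 (adjusted p = 0.873). NDUFS1 spread from 74.4 to 88.5 CPM in controls and from 78.7 to 81.9 CPM in overexpressing cells. The accessory subunit NDUFV3 had -0.19 with an adjusted p of 0.231, and NDUFS4, an accessory subunit needed for a stable N module, had the highest value of the module at 0.06 (adjusted p = 0.829).

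The Q module, where ubiquinone is reduced, had 0 of 6 genes called by edgeR, DESeq2 or limma-voom, 0 with an unadjusted p under 0.05, and a median of -0.02. NDUFS7, which carries the last iron-sulfur cluster of the chain, gave 30.3, 31.3 and 37.8 CPM in control cells and 32.4, 31.3 and 36.6 CPM with USAG-1 overexpression. The groups overlapped, with control replicate 3 the highest, and the log2 fold change was 0.01 (95% interval -0.22 to 0.25, adjusted p = 0.944). NDUFS8, another iron-sulfur subunit, had 38.7, 43.5 and 61.7 CPM against 44.9, 49.4 and 52.4 CPM, with a log2 fold change of 0.03 (adjusted p = 0.932). NDUFS3, a scaffold subunit of the module, was the lowest, with 29.7, 29.7 and 36.7 CPM in controls and 25.6, 28.7 and 27.8 CPM in overexpressing cells. All 3 overexpressing values of NDUFS3 were below the controls, while its log2 fold change of -0.23 was not called (adjusted p = 0.169). On the same strand NDUFS3 overlaps PTPMT1 over 8032 bases, with 7904 counts of NDUFS3 and 7983 of PTPMT1 in all. PTPMT1 had a log2 fold change of 0.03 (adjusted p = 0.784), and the part of reads shared between these genes was not tested. The accessory subunit NDUFA5 had -0.22 (adjusted p = 0.395). Without control replicate 3, NDUFA5 was called lower at -0.36 (adjusted p = 0.0306) and NDUFS3 had -0.11, so that NDUFA5 and not NDUFS3 was the lowest of the module.

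Taking the 7 core subunits of both modules as a class, 0 were called by edgeR, DESeq2 or limma-voom and 0 had an unadjusted p under 0.05, with a median log2 fold change of -0.03. The 31 accessory subunits, with NDUFA4 counted among them, held all 3 called genes, with 29 point estimates below 0 and a median of -0.21. Their share called, 9.68%, lay near the 6.91% of all genes tested called lower and under the 15.9% called in either direction. The point estimate was below 0 in 52.5% of all genes tested. Against such shares, 0 calls among only 7 core genes do not set the core subunits apart. The difference between core and accessory subunits was not tested. Without control replicate 3, the median of the core subunits was 0.11, and NDUFS8 (log2 fold change 0.26, adjusted p = 0.0416) was called higher together with the accessory subunit NDUFA9 (0.21, adjusted p = 0.0216), whose value over all libraries was -0.00.

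In the membrane arm, the proximal pump module had 1 of 9 genes called by edgeR and the distal pump module 1 of 11, with medians of -0.23 and -0.20. DESeq2 called 2 and 3 of them, and limma-voom 1 and 1. Of all genes tested, edgeR called 15.9%, DESeq2 20.7% and limma-voom 15.9%, so the larger counts of DESeq2 go with a larger share overall in that tool. All 9 point estimates of the proximal module were below 0, from NDUFA13 at -0.43 to NDUFC1 at -0.04 (adjusted p = 0.894), the latter an accessory subunit with 6.04 to 7.76 CPM in controls and 6.11 to 8.13 CPM in overexpressing cells. NDUFS5, a subunit on the intermembrane space side, had 125, 123 and 121 CPM against 109, 94.9 and 114 CPM. Those groups were apart, and the log2 fold change of -0.21 missed the threshold in edgeR (adjusted p = 0.0960) and just passed it in DESeq2 (adjusted p = 0.0499). In the distal module, 10 of 11 point estimates were below 0. NDUFB2, an accessory subunit, held 23.6, 24.6 and 28.9 CPM in controls and 21.4, 21.0 and 20.3 CPM with USAG-1 overexpression, a log2 fold change of -0.30 that edgeR did not call (adjusted p = 0.0659) and DESeq2 did (adjusted p = 0.0367). NDUFB10, an accessory subunit with disulfide bonds, was the exception, with a log2 fold change of 0.12 (adjusted p = 0.508) and groups that overlapped.

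Of the genes kept outside the modules, NDUFAB1 encodes the mitochondrial acyl carrier protein, which also serves fatty acid and lipoic acid synthesis. Its level was 22.8, 22.2 and 24.5 CPM in control cells and 19.7, 18.0 and 19.5 CPM in USAG-1-overexpressing cells, without overlap. The log2 fold change of -0.28 (95% interval -0.47 to -0.09) was not called by edgeR at an adjusted p of 0.0520. It was called by DESeq2 (adjusted p = 0.0267) and by edgeR when only genes with at least 10 counts in every library were kept (adjusted p = 0.0453). NDUFA4, now regarded as a subunit of complex IV despite its name, had 60.9, 63.1 and 69.0 CPM against 54.2, 49.4 and 60.0 CPM. Its groups were also apart, and its log2 fold change of -0.24 was not called (adjusted p = 0.102).

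The NDUFAF assembly factors had 0 of 8 genes called by edgeR, 1 with an unadjusted p under 0.05, and a median log2 fold change of -0.16. DESeq2 called 1 of them, NDUFAF2, and limma-voom called 0, while these tools called 20.7% and 15.9% of all genes tested. NDUFAF2, which acts late in assembly and resembles the subunit NDUFA12, had 15.9, 14.8 and 14.7 CPM in control cells and 11.8, 13.0 and 12.3 CPM with USAG-1 overexpression. The groups did not overlap, and the log2 fold change was -0.29 (95% interval -0.50 to -0.08, adjusted p = 0.0720). NDUFA12 itself had -0.03 (adjusted p = 0.811). NDUFAF1, which helps to assemble the proximal membrane arm, had 6.78, 7.15 and 10.3 CPM against 5.53, 6.37 and 6.56 CPM. Its log2 fold change of -0.39, the lowest of the factors, had a 95% interval of -0.81 to 0.03 (adjusted p = 0.196), with control replicate 3 far above the other controls. Without that library NDUFAF1 had -0.17, and NDUFAF2 was lower at -0.30 and was called (adjusted p = 0.0487).

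NDUFAF3 and NDUFAF4 act together on the Q module, and their log2 fold changes were -0.00 (adjusted p = 0.992) and -0.02 (adjusted p = 0.909). NDUFAF4 stayed between 13.6 and 14.4 CPM in all 6 libraries. NDUFAF5, a hydroxylase of NDUFS7, and its partner NDUFAF8 had -0.17 (adjusted p = 0.355) and -0.21 (adjusted p = 0.286). NDUFAF6, which is needed for the synthesis of the ND1 subunit, had -0.15 (adjusted p = 0.262), and its overexpressing libraries of 15.2, 14.2 and 15.4 CPM lay below its controls of 17.1, 16.3 and 16.4 CPM. NDUFAF7, a methyltransferase, was the only factor with a point estimate above 0, at 0.10 (95% interval -0.17 to 0.37, adjusted p = 0.621). The difference between assembly factors and subunits was not tested. The 11 other complex I assembly factors on a list without the NDUFAF prefix had 0 genes called by edgeR, 3 with an unadjusted p under 0.05, and a median of -0.03, while DESeq2 called 1 and limma-voom 0. In edgeR's test the 3 were NUBPL, which delivers iron-sulfur clusters to the complex, at 0.29 with groups apart and higher (adjusted p = 0.152), COA1, a factor of the membrane arm, at -0.22 (adjusted p = 0.0633) and ACAD9, a flavoprotein that works with NDUFAF1, at -0.15 (adjusted p = 0.145).

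The libraries differed in a shared way across members. Control replicate 3 was the highest of the 6 libraries in 33 of the 46 members, whereas it was the highest in 25.5% of all genes tested. It was the lowest in 3 members, against 25.0% of all genes tested. Set against each gene's control mean, the median log2 deviation of the subunits was -0.07, -0.07 and 0.14 in control replicates 1, 2 and 3, and -0.19, -0.20 and -0.09 in the overexpressing libraries. All overexpressing medians therefore lay below those of the controls, by a narrow margin for overexpression replicate 3 against control replicates 1 and 2. Summed over the 38 subunits, the level was 1520, 1534 and 1806 CPM in control cells and 1438, 1421 and 1541 CPM in USAG-1-overexpressing cells, so the sums of the groups overlapped. The 8 NDUFAF genes summed to 127, 118 and 140 CPM against 114, 121 and 122 CPM, which overlapped as well. Without control replicate 3, 7 members were called, 5 lower and 2 higher, while the share of all genes called was 27.0%, and the point estimate was below 0 in 33 of the 46.

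**Figure D3:**
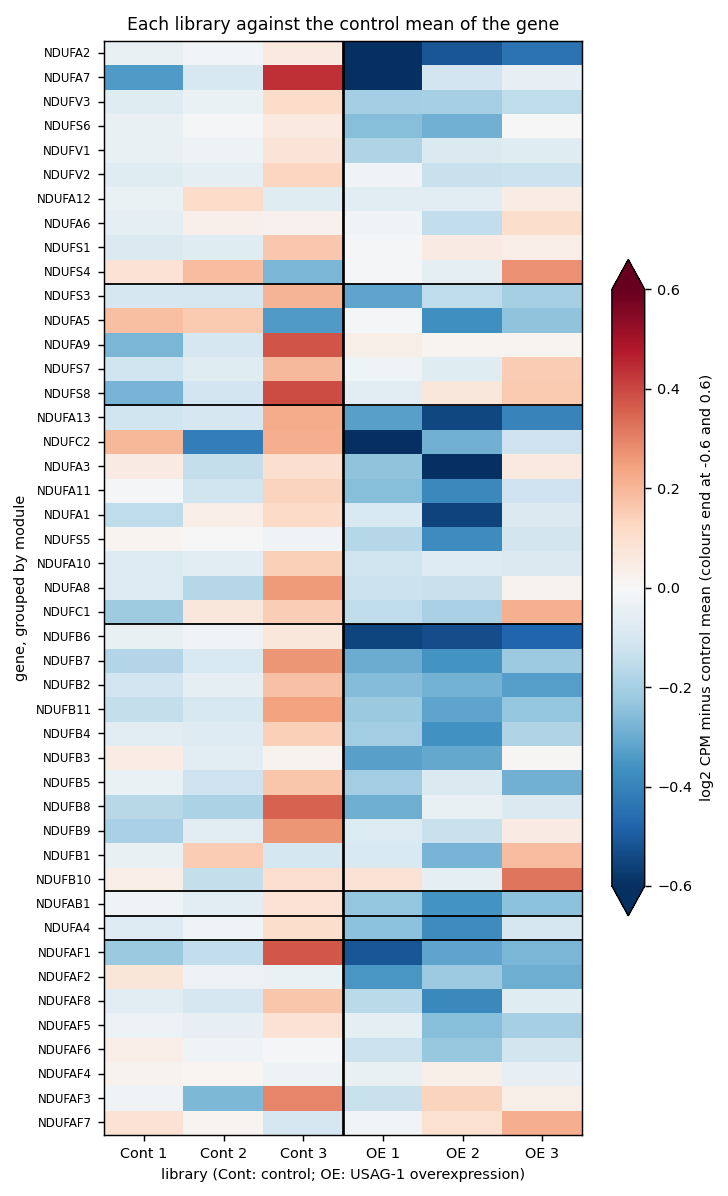
Difference of each library from the gene's control mean (colour, log2 CPM, red above and blue below) for 45 of the 46 members (y axis, grouped by module) in the 3 control and 3 overexpressing libraries (x axis). Control replicate 3 is red in most genes, and NDUFA2 and NDUFB6 are dark blue in all 3 overexpressing libraries.

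Several members shared their genomic span with another gene, so some of their reads may belong to either gene. Only spans and counts were compared, and whether reads were shared was not tested. For 6 members, another gene on the same strand covered at least 90% of their span, and in some of these pairs a library with few counts of one gene had many of the other. NDUFC2, a subunit of the proximal pump module, had 2314, 1789 and 2398 counts in control libraries and 1433, 1730 and 1913 counts in overexpressing ones, while the readthrough gene NDUFC2-KCTD14 had 196, 907 and 675 against 1221, 532 and 631. The readthrough gene took from 7.81% to 46.0% of the pair's counts within these libraries. Counted together, the pair had a log2 fold change of -0.15 (adjusted p = 0.396), compared with -0.36 (adjusted p = 0.230) for NDUFC2 alone.

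NDUFA7, an accessory subunit of the N module, had the widest interval of all members, from -1.42 to 0.42. Its counts were 477, 667 and 836 in control libraries and 196, 583 and 604 in overexpressing libraries, with overexpression replicate 1 far below the rest. In that same library the overlapping gene ENSG00000167774 had 498 counts, against 42 to 183 in the others. The sums of both genes ran from 646 to 908 counts, and the log2 fold change was -0.20 (adjusted p = 0.368) for the sum and -0.50 (adjusted p = 0.455) for NDUFA7 alone. For NDUFA13, the overlapping gene ENSG00000258674 held 396, 392 and 333 counts in control cells and 416, 495 and 597 counts with USAG-1 overexpression. Counted with that gene, NDUFA13 had a log2 fold change of -0.22 and was no longer called (adjusted p = 0.144). Pseudogenes bearing a member's name held 0.154% of the members' counts and at most 2.59% of any one member's.

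**Figure D4:**
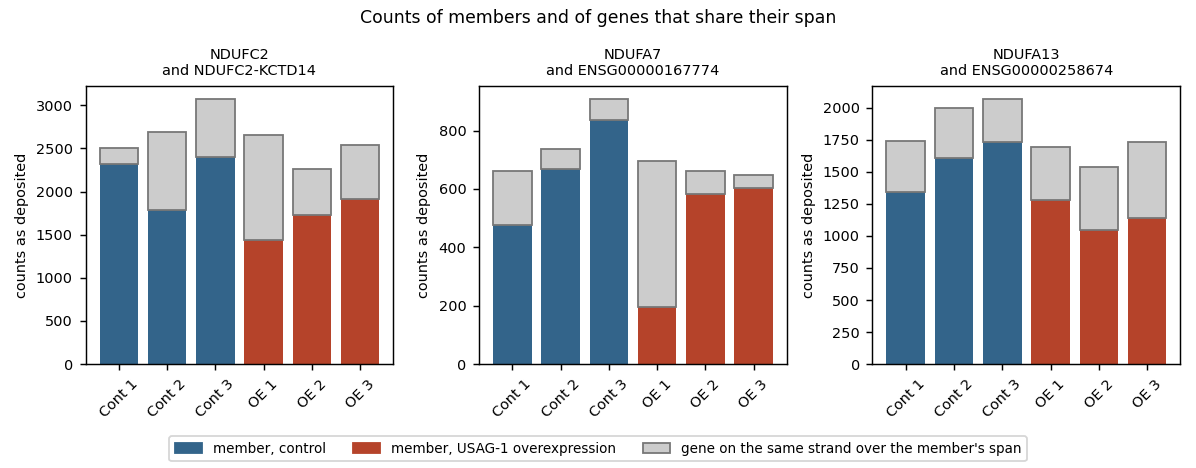
Deposited counts (y axis, from 0) of NDUFC2, NDUFA7 and NDUFA13 in each library (coloured) with the counts of the gene that covers their span on the same strand stacked above (grey). The grey share of NDUFC2 is largest in overexpression replicate 1 at 46.0%, as is that of NDUFA7, whereas for NDUFA13 all 3 overexpressing libraries have a larger grey part than the controls.

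Beside the nuclear genes, the 7 ND subunits encoded in mitochondrial DNA were all called lower, with a median log2 fold change of -2.04, from MT-ND3 at -2.10 to MT-ND4L at -1.61. MT-ND2, a proton-pumping subunit of the proximal arm, had 3220, 3144 and 3036 CPM in control cells and 712, 781 and 728 CPM with USAG-1 overexpression, so the groups were widely apart (log2 fold change -2.08, adjusted p = 7.74e-07). MT-ND1, which takes part in the ubiquinone pocket from the membrane side, had -1.74 (adjusted p = 1.01e-06). The sum of the ND transcripts was 17307, 16809 and 13502 CPM in control libraries and 4313, 4362 and 4323 CPM in the others. No nuclear-encoded member had a value as low, the lowest being NDUFA2 at -0.58. MT-ND4L overlaps MT-ND4, so counts of these genes may be shared.

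Nuclear subunits of complexes II to V gave values of similar size to those of complex I. Of these 41 genes, 6 (14.6%) were called lower and 0 higher, 36 had a point estimate below 0, 17 had groups that were apart and lower, and the median was -0.14. Of all genes tested, 15.9% were called in either direction and 6.91% were called lower. The point estimate was below 0 in 52.5% of all genes tested, and the groups were apart and lower in 18.1%. The calls were 0 of 4 in complex II, 1 of 9 in complex III, 1 of 10 in complex IV and 4 of 18 in complex V. UQCRQ of complex III had the lowest value, -0.54 (adjusted p = 0.0156), COX7C of complex IV had -0.35 (adjusted p = 0.00986), and ATP5MG and ATP5MJ of the ATP synthase had -0.43 (adjusted p = 0.00738) and -0.43 (adjusted p = 0.0172). No difference between complex I and the other complexes was tested. Control replicate 3 also had the highest median deviation among these genes, at 0.18 against -0.08 and -0.09 in the other controls.

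**Figure D5:**
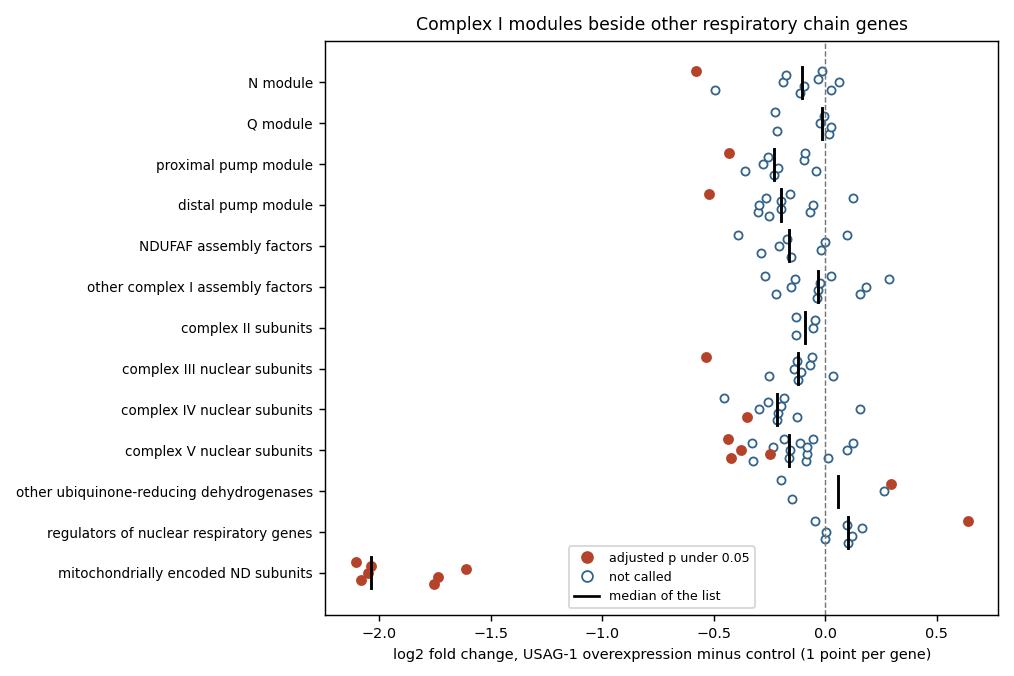
Log2 fold change (x axis, USAG-1 overexpression minus control) of single genes in the complex I modules, assembly factors, the other complexes and related lists (y axis), with red points for called genes and a black bar for the median. The nuclear lists of complexes I to V have medians between -0.23 and -0.02, while the 7 ND genes encoded in mitochondrial DNA lie between -2.10 and -1.61.

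Other enzymes that feed electrons to ubiquinone, and regulators of nuclear respiratory genes, had medians of 0.05 and 0.10. Of 4 dehydrogenases, GPD2, the mitochondrial glycerol-3-phosphate dehydrogenase, was called higher, from 45.4, 42.9 and 39.9 CPM in control cells to 54.3, 53.1 and 49.9 CPM (log2 fold change 0.30, adjusted p = 0.0267). ETFDH, which takes electrons from fatty acid oxidation, had 0.26 (adjusted p = 0.159), while DHODH of pyrimidine synthesis had -0.20 (adjusted p = 0.417) and SQOR of sulfide oxidation had -0.15 (adjusted p = 0.531). Among 8 regulators, PPARGC1A, the coactivator PGC-1α, was called higher, with 13.9, 16.3 and 11.5 CPM in control cells and 22.6, 19.7 and 22.5 CPM in USAG-1-overexpressing cells. On the log2 scale the difference was 0.64 (standard error 0.13, adjusted p = 0.0165). Of all genes tested, 8.95% were called higher and 15.9% in either direction, so 1 call in lists this short sets neither list apart. GABPA, a subunit of the factor GABP that binds promoters of respiratory genes, had 0.16 (adjusted p = 0.138), and NRF1, another such factor, had -0.05 (adjusted p = 0.788). Without the globin-rich libraries, 0 of these 4 dehydrogenases and 0 of these 8 regulators were called, with 1 of each at an unadjusted p under 0.05, and the 7 ND genes of mitochondrial DNA were all still called.

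The members' fold changes showed little relation to gene size or level. Across the 46 members, which share the same 6 libraries and are not independent, Spearman's rho of the log2 fold change with the genomic span was 0.10 and with the control level was 0.14. Over all genes tested the values were 0.20 and 0.15. Transcript lengths were not used here, so the CPM of different members are not compared with each other.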

How the data were processed

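RNA-seq of 3 control and 3 USAG-1-overexpressing HK-2 libraries was analysed. The labels describe poly(A) selection, a dUTP protocol and paired reads of 150 bases, while the series text names removal of ribosomal RNA and another sequencer. The submitters' processing notes name cutadapt 1.9, FastQC and hg38; the aligner, the counter, the annotation and the strand setting are not given in the sources used here. The authors deposited whole-number counts per gene without normalization, under a name that speaks of FPKM, and these were used as counts. No column of values was without a library.

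In edgeR 4.0.16 (R 4.3.3), genes were filtered by filterByExpr, libraries were scaled by TMM, and the quasi-likelihood test was run without a replicate block. Adjusted p-values are Benjamini-Hochberg values over 18188 genes, and genes with a value under 0.05 were called at any fold change, the threshold that the study's methods name together with DESeq2. Standard errors were obtained from the log2 fold change and the F statistic (their ratio after taking the root of F), and intervals use the t distribution with the fit's total degrees of freedom. CPM are on the TMM scale, where 3 counts are 0.0608 to 0.0719 CPM, and deviations used a prior count of 2. Intervals and such limits cover counting error and the spread of these libraries only. The study reports 3 biological replicates a group for most of its experiments, but does not state this for the RNA-seq. The p-values therefore measure the spread between these samples, which may be technical. The code was tested on simulated data.

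The members and all gene lists were chosen with earlier results of these data known, and lists were typed from general knowledge. Text names the called members, core subunits, all NDUFAF genes, the highest and lowest member of each module, NDUFAB1, NDUFA4 and SOSTDC1. Of the 2 genes of each list with the smallest p, some are named and others are not. NDUFA12, NDUFA9, NDUFA7, NDUFC2, NRF1, NUBPL, DHODH, SQOR, MT-ND3, MT-ND4L and overlapping genes were named after their values were seen. Marker lists of other cell types were summed in each library: T and NK cells are given in the report, and 0 of 4 B cell, 1 of 7 myeloid, 0 of 3 erythroid and 0 of 1 endothelial markers tested were called, as were 1 of 4 proximal tubule and 2 of 5 kidney epithelial line markers. Alternatives were DESeq2's size factors, library sizes alone, DESeq2 1.42.0, limma-voom (limma 3.58.1), other filters, a replicate block, an offset for genomic span, mitochondrial genes left out and each library left out. Merging genes of the same strand and leaving out the globin-rich libraries were added after seeing the data. The values of 1 member and 1 marker are not reported here. A genome and sequences of the files' build were not used here.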

Additional observations from a re-analysis of the deposited data

How the results depend on the processing

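NDUFA2 was called in 17 of 18 alternatives, NDUFB6 in 16 and NDUFA13 in 11, always with a value below 0. DESeq2's Wald test called 8 members (7 subunits and the NDUFAF gene NDUFAF2) and 10 nuclear subunits of complexes II to V, against 3, 3, 0 and 6 with edgeR, while 20.7% of all genes were called. The offset for genomic span called 1 NDUFAF gene. With each library left out in turn, the calls ranged from 1 to 7 for members, from 1 to 6 for subunits, from 0 to 1 for NDUFAF genes and from 1 to 11 for complexes II to V, and the core median from -0.10 to 0.11. The highest counts and that median came without control replicate 3, which also turned NDUFA9 to 0.21 (the lowest value of NDUFA9 was -0.13, without control replicate 1), and the lowest counts came without overexpression replicate 2. The counts for complexes II to V were 3 without control replicate 1 and 2 without overexpression replicate 1. Without both globin-rich libraries, 0 members, 0 subunits and 0 genes of complexes II to V were called, with 1.83% of all genes called among 18311, and the NDUFAF median was -0.22. The cause of these shifts was not tested. The replicate block gave 4 called members and 4 called subunits (NDUFA11 added), with 13.1% of all genes called. Libraries of the same number correlated at 0.07, -0.05 and 0.04 in their deviations, not every library correlated best with its own number, and the numbers are not said to pair cultures. The other 214 values of counts and medians stayed within 1.5 times the count or within the spread. With 3 libraries a group, the median standard error of the members was 0.11 on the log2 scale, which limits what could be called.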
